A study of Danio rerio with 6 samples.

Results

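Bile acid synthesis and uptake genes were examined in RNA sequencing libraries of zebrafish (Danio rerio) liver. The set was named by 10 zebrafish symbols, without cytochrome P450 and ABC transporter genes, and a row of the deposited table belonged to it when its Ensembl identifier carried one of those symbols. Of the 10 symbols, 6 matched 1 row each among 30628 rows: slc10a1 (ENSDARG00000030588), slc10a2 (ENSDARG00000014916), slc27a2a (ENSDARG00000036237), hsd3b7 (ENSDARG00000036966), amacr (ENSDARG00000057435) and slc51a (ENSDARG00000045306). The symbols slc27a5, baat, akr1d1 and acox2 matched no row and were not analysed here.

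The 6 libraries came from 2 groups of 3 liver samples, all labelled 2 wpi. The ATG5 group (genotype label ATG5 overexpression) carried fabp10a-driven mCherry and LexPR together with LexOP:ATG5WT. The liver promoter of fabp10a drives LexPR, a regulator that mifepristone activates, and LexPR switches on human ATG5, an autophagy gene. The WT group had the genotype WT, and both groups were treated with mifepristone, a steroid that also blocks the glucocorticoid receptor. The series' design text calls the groups hepatocellular carcinoma and normal liver, and the comparison asks how the former differs from the latter. No group had the transgene without the drug. Age, sex, whether WT fish carried the regulator and whether a replicate was 1 animal or a pool are not given in the labels. The p-values therefore describe the spread among these 6 samples, and that spread may be technical.

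Bile acids are made from cholesterol in hepatocytes. Ring-modifying enzymes such as hsd3b7 act first, the side chain is then activated with coenzyme A by acyl-CoA synthetases of the SLC27 family, and amacr turns the activated intermediate into the form that peroxisomes can shorten. In mammals slc10a1 takes bile acids up from blood into hepatocytes, slc10a2 takes them up in the ileum and in bile ducts, and slc51a forms 1 part of a basolateral exporter. In zebrafish and other carp-like fish the main bile salt is a sulphated bile alcohol rather than a conjugated bile acid.

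Total estimated counts per library ran from 33668921 to 44763213. Levels are counts relative to library size (CPM) after TMM scaling, which adjusts library sizes so that most genes do not shift between groups, and tests are edgeR quasi-likelihood tests with Benjamini-Hochberg adjustment over 20366 genes. By that test 17.3% of all tested genes were higher in ATG5 and 13.2% lower, and for 49.3% all values of one group lay above all of the other. With library sizes only, all folds moved up by a median of 0.94 on the log2 scale, and the share of calls that were higher went from 56.7% to 94.9%. Directions below are relative to TMM scaling. The fish's own atg5 was at 14.6 ± 4.58 CPM (SD, n = 3) in WT livers and 16.4 ± 2.58 CPM in ATG5 livers (log2 fold 0.17, edgeR adjusted p = 0.65). This row is that of the zebrafish gene, and whether any reads of the human transgene were assigned to it was not tested.

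Among the 4 members that passed the filter on low counts, slc27a2a fell in the ATG5 livers and hsd3b7, amacr and slc51a did not pass the test. That is 1 of 4 called lower, against 13.2% of all tested genes, and 0 of 4 called higher, against 17.3% (0 also at an unadjusted edgeR p under 0.05 and by DESeq2). The other 2 members, slc10a1 and slc10a2, held at most 10 counts in any library and were not tested.

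The fall of slc27a2a, which encodes a very long-chain acyl-CoA synthetase that in mammals also activates bile acid intermediates, was about 6.98-fold. Its level was 1467, 1241 and 1264 CPM in the WT libraries and 223, 157 and 189 CPM in the ATG5 libraries, in replicate order, as for all values below. Every ATG5 library lay far below every WT library. The mean went from 1324 ± 124 CPM (SD, n = 3) to 189.7 ± 33.1, a log2 fold of -2.80 with a 95% interval of -3.32 to -2.29 (edgeR adjusted p = 0.000957). A fall of that size or more was seen in 190 of the 2698 genes called lower (7.04%). Scaled by library sizes only, the log2 fold was -1.86 (edgeR adjusted p = 0.00066), where the median of all tested genes was 0.97. Hepatocyte genes moved with it: among 23 tested markers 19 fell, against 13.2% of all tested genes, and 0 rose, against 17.3%. Their median log2 fold was -1.62, and their summed level was 76423 to 103679 CPM in ATG5 and 230379 to 286896 in WT. All rows together summed to 681407 to 750800 CPM in ATG5 and 1312159 to 1462882 in WT, since TMM scaling does not fix the total. Summed levels here and below are therefore not shares of a library. With library sizes only, the marker median was -0.67. That setting gave 13 of the markers lower and 0 higher, where 578 of 20366 tested genes were lower and 10853 higher. The hepatocyte list gave 21 lower and 0 higher by DESeq2, and 0 higher at an unadjusted edgeR p under 0.05. In these bulk samples fewer hepatocytes and less of an RNA per hepatocyte cannot be told apart.

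For the ring enzyme hsd3b7 the difference was smaller than the spread of the libraries. It stood at 219, 207 and 179.6 CPM in WT and at 120.4, 233 and 217 CPM in ATG5. ATG5 replicate 1 was the lowest of all 6 libraries, while replicate 2 lay above the WT range and replicate 3 inside it. The log2 fold was -0.09 with an interval of -0.75 to 0.57 (edgeR adjusted p = 0.837), and 0.13 without ATG5 replicate 1.

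The racemase gene amacr held 338 to 712 counts per library, fewer than the other tested members. It stood at 13.5, 13.2 and 14.3 CPM in WT and at 12.7, 9.84 and 11.9 CPM in ATG5. The ATG5 values all lay below the WT values, by a small margin for replicate 1. The log2 fold of -0.25 had an interval of -0.63 to 0.12 and did not pass (edgeR adjusted p = 0.268).

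The exporter gene slc51a stood at 377, 285 and 311 CPM in WT and at 315, 398 and 450.3 CPM in ATG5. ATG5 replicate 1 lay inside the WT range and the other two ATG5 libraries above it. The log2 fold was 0.26 with an interval of -0.24 to 0.76 (edgeR adjusted p = 0.392). Markers of bile ducts, where slc51a is also found in mammals, were higher in the same livers. Among 13 tested 7 rose, against 17.3% of all tested genes, and 0 fell, against 13.2%. Their median log2 fold was 1.03, with a summed level of 3836 to 5367 CPM in ATG5 and 1530.4 to 1979 in WT. None of them was lower by DESeq2, at an unadjusted edgeR p under 0.05 or with library sizes only. In that last setting all 13 were higher, but so were 10853 of all 20366 tested genes, with a median log2 fold of 0.97. The keratin gene krt18a.1 of this list stood at 1141 ± 124 CPM against 409 ± 108, and anxa4 at 1327 ± 573 against 290.3 ± 77.9. Their part in the slc51a level was not tested.

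**Figure D1:**
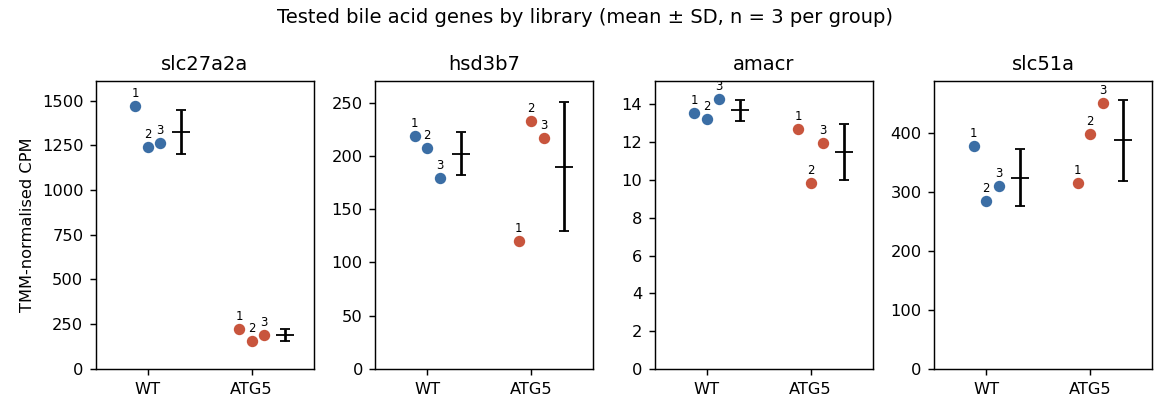
TMM-normalised CPM of the 4 tested members in each library (points numbered by replicate, bars mean ± SD, n = 3 per group, each panel with its own axis from 0). For slc27a2a the ATG5 libraries sit between 157 and 223 CPM and the WT libraries between 1241 and 1467, while hsd3b7 and slc51a overlap between groups and amacr differs by a small margin.

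The sodium-dependent bile acid carriers were almost uncounted in both groups. The row of slc10a1, the main hepatocyte uptake carrier of mammals, held 9, 0 and 0 counts in the WT libraries and 10, 4 and 0 in the ATG5 libraries. The row of slc10a2 held 1, 6 and 0 counts in WT and 1, 6 and 4 in ATG5. A count of 0 allows up to 3 counts, which is 0.0503 CPM in ATG5 replicate 3, 0.0897 CPM in WT replicate 2 and 0.119 CPM in WT replicate 3, by counting error only. No difference was detectable at this depth, and no fold is given. The ileal bile acid-binding protein gene fabp6 had 0 counts in all 6 libraries. Other genes of the intestine were counted: fabp2, a fatty acid-binding protein gene, held 13, 48 and 14 counts in WT and 236, 16 and 635 in ATG5, and slc5a1, a glucose carrier gene, went from 1.15 to 9.74 CPM and was called higher. The difference of fabp2 did not pass (edgeR adjusted p = 0.131). Of 10 tested intestine markers 3 rose, against 17.3% of all tested genes, and 1 fell, against 13.2%. The marker that fell was cdx1a, from 21.0 CPM in WT to 2.38 CPM in ATG5 (log2 fold -3.14, edgeR adjusted p = 0.00272).

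Since scaling moved 3 of the 4 tested members between no call and a call, their counts were also compared with each other within each library, where no scaling factor enters. This comparison was added after the values were seen. The log2 ratio of slc27a2a to amacr was 6.76, 6.55 and 6.47 in WT and 4.13, 3.996 and 3.98 in ATG5. The groups were well apart, by -2.56 between their means. The ratio of slc27a2a to slc51a fell from 2.04 ± 0.08 (SD, n = 3) to -1.03 ± 0.46, a difference of -3.06, and that to hsd3b7 differed by -2.67. For these 3 ratios the exact two-sided permutation p was 0.1, the smallest that 3 against 3 libraries allow. Among hsd3b7, amacr and slc51a the groups overlapped in each of the 3 ratios, with differences of 0.12, -0.39 and -0.51 (exact permutation p = 0.8, 0.3 and 0.2). Over all 10 ratios computed, the last 4 against the hepatocyte markers, the smallest Benjamini-Hochberg adjusted value of these exact permutation tests was 0.143.

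The mean edgeR log2 fold of the 23 hepatocyte markers was -2.09. The members were also set against the mean log2 count of these markers in the same library. On this measure the median difference over all 20366 tested genes was 2.19, and in 85.8% of them all ATG5 libraries lay above all WT libraries, so a gene near the middle of all genes is higher by construction. The values of hsd3b7, amacr and slc51a were higher by 2.01, 1.89 and 2.40, near that median. The slc27a2a value was -1.86, -1.62 and -1.94 in WT and -2.45, -2.66 and -2.29 in ATG5, a difference of -0.66. All 3 ATG5 libraries lay below all 3 WT libraries, as for 0.53% of all tested genes (exact permutation p = 0.1, the smallest possible). The markers themselves ran from -6.98 to 1.64 around their mean, and 3 of the 23 had a difference at or below that of slc27a2a. The size rested in part on rbp4 and tdo2b, the markers with the largest falls: without them the differences were -1.17 for slc27a2a and 1.502, 1.38 and 1.89 for hsd3b7, amacr and slc51a.

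**Figure D2:**
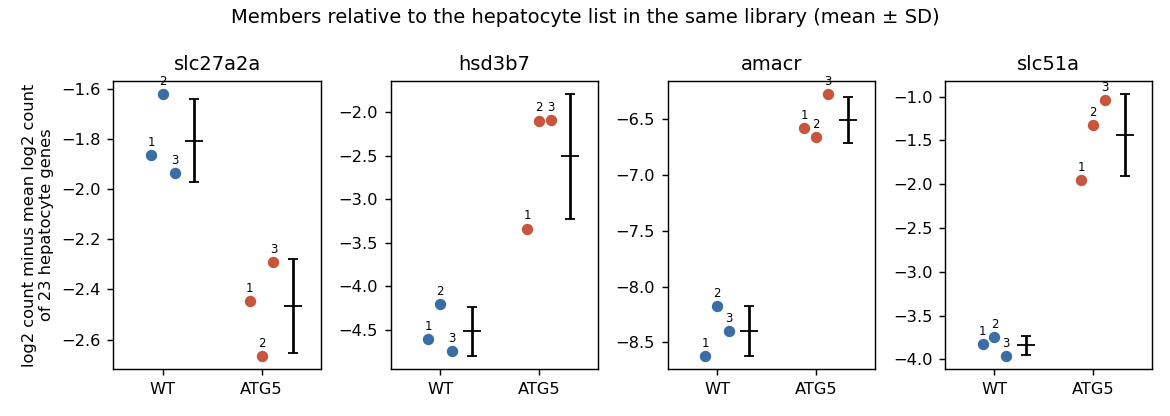
The log2 count of each tested member minus the mean log2 count of 23 hepatocyte markers in the same library (points numbered by replicate, bars mean ± SD, n = 3 per group, each panel with its own axis). The ATG5 libraries lie below WT for slc27a2a and above WT for hsd3b7, amacr and slc51a, where the median difference of all tested genes is 2.19.

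The SLC27 family of acyl-CoA synthetases and fatty acid transporters had 6 tested rows, slc27a2a among them. By the edgeR test 4 of the 6 fell, against 13.2% of all tested genes, and 1 rose, against 17.3%; slc27a2a is itself 1 of the 4, and the family was described because of it. The paralogue slc27a2b stood at 405, 499.7 and 245 CPM in WT and at 77.4, 64.5 and 73.5 CPM in ATG5. Its groups were far apart, with a log2 fold of -2.42 (interval -3.12 to -1.71, edgeR adjusted p = 0.003). The gene slc27a6 went from 199 ± 26.3 CPM (SD, n = 3) to 14.6 ± 6.70, a log2 fold of -3.77 (edgeR adjusted p = 0.00209).

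For slc27a1 the names table gives 2 rows without a paralogue letter, and they differed. One (ENSDARG00000104949) fell from 287 ± 12.8 to 32.5 ± 14.0 CPM, a log2 fold of -3.14 (edgeR adjusted p = 0.00271). The other (ENSDARG00000006240) stood at 29.0 ± 1.296 CPM in WT and 22.7 ± 3.39 CPM in ATG5 and did not pass (log2 fold -0.35, adjusted p = 0.135). The difference between the 2 rows was not tested. The 4 rows that fell were also called lower with library sizes only, with log2 folds of -1.48 to -2.84. The gene slc27a4 rose from 0.193 ± 0.130 to 0.825 ± 0.162 CPM, a log2 fold of 2.11 (edgeR adjusted p = 0.0443) that no longer passed without any 1 of the 6 libraries (adjusted p = 0.0562 to 0.129), with the replicate block (0.103) or without the count filter (0.0718). The deposited values of slc27a2a, slc27a2b and both slc27a1 rows were not whole numbers in any library, so reads can be split between similar transcripts. The same held for hsd3b7, amacr, slc27a4 and some pathway genes, among them slco1d1 and hnf4a. The values of slc27a6 and slc51a were whole in all 6 (tolerance 1e-06).

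**Figure D3:**
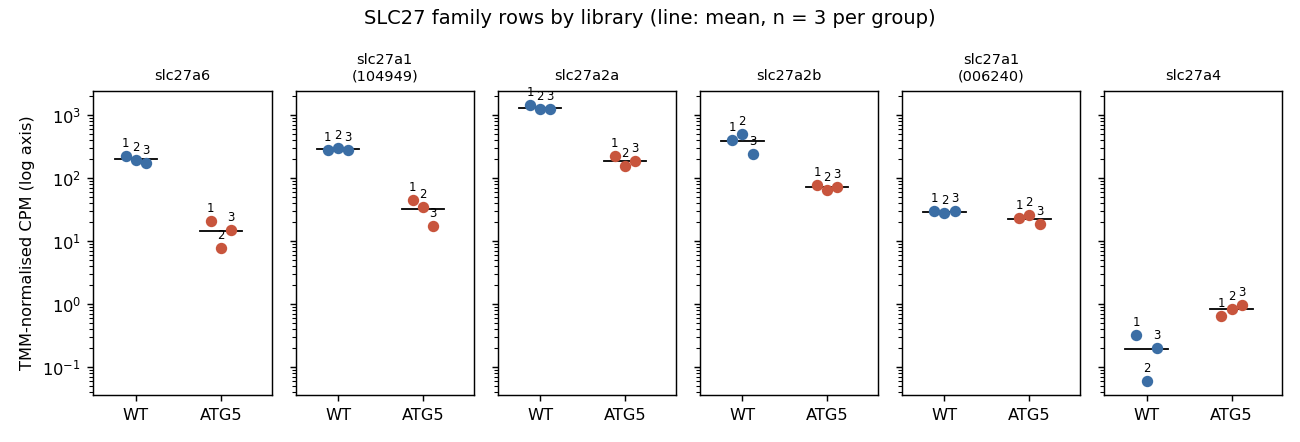
TMM-normalised CPM on a log axis for the 6 tested rows of the SLC27 family, slc27a1 rows marked by the last digits of their identifiers (points numbered by replicate, lines the group means, n = 3). The ATG5 means lie below the WT means in 5 panels and above in that of slc27a4; levels are not corrected for transcript length and are not to be compared between panels.

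A wider list around the bile acid pathway held 58 further symbols, of which 51 matched and 43 passed the filter. It includes family relatives, such as slc10a3, slc10a4, slc10a7 and the SLC27 rows other than slc27a2a. Whether these relatives act on bile acids in zebrafish was not examined. Of these 43 genes, 12 fell and 9 rose (48.8% called, against 30.6% of all tested genes), and the median log2 fold was -0.40, against 0.03 over all tested genes. Values of ATG5 and WT were fully apart in 30 of the 43 (69.8%, against 49.3%). Under library sizes only the balance turned to 5 lower and 16 higher, with a median of 0.54 against 0.97 over all genes. Without WT replicate 1 the number higher was 5. The members and this list were picked with earlier results of these data known.

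Among 18 enzymes and their relatives, the SLC27 rows included, 5 fell, against 13.2% of all tested genes. Another 3 rose, against 17.3% of all tested genes. The falls of slc27a2b, slc27a6 and slc27a1 (ENSDARG00000104949) and the rise of slc27a4 were already counted in the SLC27 family above. They are not further evidence on the other enzymes. The gene scp2a, whose product carries the peroxisomal thiolase that shortens the side chain, went from 2807, 1938 and 1709 CPM in WT to 686, 538 and 800.3 CPM in ATG5. All ATG5 libraries lay below all WT libraries, with a log2 fold of -1.67 (interval -2.34 to -1.002, edgeR adjusted p = 0.00758). The thioesterase gene acot8, which acts on the coenzyme A esters of peroxisomes, rose from 3.05 ± 0.722 to 6.97 ± 0.439 CPM, a log2 fold of 1.19 (edgeR adjusted p = 0.0117). The gene ch25h, which encodes cholesterol 25-hydroxylase, held 0, 0 and 2 counts in WT and 133, 400 and 210 in ATG5. Per library size that is a ratio of summed counts of 191, with an exact 95% counting interval of 52.7 to 1579. That interval leaves out the spread between libraries. The edgeR log2 fold was 7.42, with an interval of 4.92 to 9.92 (edgeR adjusted p = 0.0044). The ratio of summed counts was 127 without ATG5 replicate 2, 134 without WT replicate 1 and 115 without WT replicate 2. Without WT replicate 3, which held both WT counts, WT has none. The summed ATG5 level of ch25h was then at least 88.9-fold that of 3 counts over the remaining WT libraries, by counting error only.

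Among carriers and binding proteins 12 of 19 matched rows were tested. Of these 3 fell, against 13.2% of all tested genes, and 3 rose, against 17.3%. The organic anion carrier slco1d1, of the family that takes up bile salts without sodium in mammals, stood at 2033, 2135 and 1881 CPM in WT and at 379.6, 349.5 and 445 CPM in ATG5. Its groups did not overlap, with a log2 fold of -2.37 (interval -2.83 to -1.90, edgeR adjusted p = 0.00118) that was -1.43 with library sizes only. Its relative slco2b1 rose from 2.49 ± 0.444 to 7.12 ± 2.07 CPM, a log2 fold of 1.51 (edgeR adjusted p = 0.0105). The slc10 relatives differed in direction: slc10a3 and slc10a4 fell, with log2 folds of -1.28 and -1.98, and slc10a7 rose by 1.16 (edgeR adjusted p = 0.0152, 0.0145 and 0.0129). Neither slc10a3 nor slc10a4 passed with library sizes only (adjusted p = 0.288 and 0.0822). The call was lost without ATG5 replicate 1 for slc10a3 (0.0567), and without WT replicate 1 for slc10a7 (0.0506).

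The liver bile acid-binding protein gene fabp10a, whose promoter drives the transgene, stood at 13258, 9562 and 12285 CPM in WT and at 4899, 5137 and 8671 CPM in ATG5. All ATG5 libraries lay below WT, with ATG5 replicate 3 nearest to it. The log2 fold of -0.91 did not pass (interval -1.68 to -0.14, edgeR adjusted p = 0.0764), but passed without ATG5 replicate 3 (0.043) and by DESeq2 (0.0116).

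Among the receptors and regulators 13 of 14 matched genes were tested. Of these 4 fell, against 13.2% of all tested genes, and 3 rose, against 17.3%. The hepatocyte transcription factor hnf4a, which in mammals activates many genes of this pathway, stood at 281, 229.6 and 193 CPM in WT and at 83.1, 90.3 and 105 CPM in ATG5. Its groups did not overlap, with a log2 fold of -1.34 (interval -1.82 to -0.85, edgeR adjusted p = 0.00539), and under library sizes only it was -0.39, which did not pass (adjusted p = 0.124). The growth factor receptor fgfr4, which relays the ileal signal that represses synthesis in mammals, fell by 1.53 on the log2 scale, and the oxysterol receptor nr1h3 fell by 1.18 (edgeR adjusted p = 0.00757 and 0.0066). Under library sizes only, fgfr4 and nr1h3 did not pass (adjusted p = 0.105 and 0.287).

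The bile acid receptor gene nr1h4 varied widely within WT, at 48.8, 12.4 and 61.5 CPM, and stood at 44.8, 26.0 and 40.8 CPM in ATG5. The ATG5 values all lay inside the WT range, and the log2 fold was -0.14 (interval -1.48 to 1.21, edgeR adjusted p = 0.877). The corepressor gene nr0b2, listed without a paralogue letter and a target of nr1h4 in mammals, rose from 3.88, 1.97 and 1.98 CPM to 6.95, 7.55 and 5.82 CPM. Its groups did not overlap, with a log2 fold of 1.37 (interval 0.59 to 2.16, edgeR adjusted p = 0.0228), and the call was lost without ATG5 replicate 1 or 2 or WT replicate 2 or 3 (adjusted p = 0.0655 to 0.0684).

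The paralogue nr0b2b was uncounted in all 3 WT libraries and stood at 4.82, 23.4 and 0.822 CPM in ATG5. The ATG5 values were thus above WT in all 3 libraries but spread widely among themselves. A WT sum of 0 allows up to 3 counts in all. Against 3 counts over WT, the summed ATG5 level of nr0b2b was at least 250.4-fold, by counting error only. That limit leaves out the wide spread between the ATG5 libraries. The edgeR interval of the log2 fold was 4.69 to 18.6. The edgeR adjusted p was 0.0342, and 0.0696 to 0.0751 without ATG5 replicate 1 or any 1 WT library. ATG5 replicate 2 held 1154 of the 1462 counts, and without it the limit on the summed level was 75.8-fold. It was 382-fold without ATG5 replicate 3, and 150.3-fold without WT replicate 2. The sphingosine receptor gene s1pr2, which conjugated bile acids activate in mammals, rose from 0.917 ± 0.158 to 3.01 ± 0.525 CPM, a log2 fold of 1.71 (edgeR adjusted p = 0.00798). The nuclear receptor gene nr5a2 did not pass at 72.1 ± 7.04 and 63.7 ± 9.23 CPM (log2 fold -0.18, adjusted p = 0.457), and library sizes only gave 0.77 (adjusted p = 0.0114). The ileal hormone gene fgf19 was at 0.146 ± 0.128 and 0.467 ± 0.208 CPM and did not pass (log2 fold 1.71, edgeR adjusted p = 0.24).

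**Figure D4:**
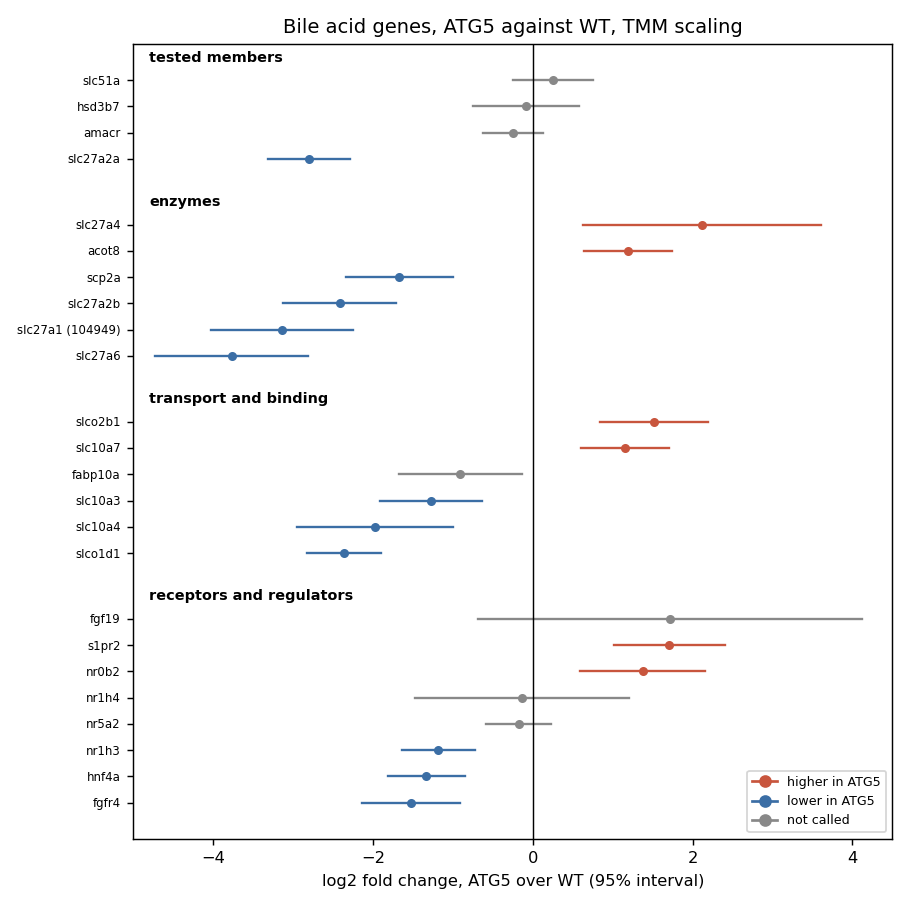
Log2 fold changes of ATG5 over WT (points) with 95% intervals (lines) for the 4 tested members and 20 pathway genes named in the text, coloured by the edgeR call; nr0b2b and ch25h, with 0 and 2 counts in WT, are not drawn, and digits in brackets are the end of an identifier. The interval of slc27a2a lies from -3.32 to -2.29, while those of the other 3 members cross 0.

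A scaling factor moves all genes nearly alike, so it moves the members' distance to 0 rather than their order. With library sizes only, slc51a, hsd3b7 and amacr were 1.21, 0.87 and 0.69 and were called higher (edgeR adjusted p = 0.00337, 0.0412 and 0.0103), while the median of all tested genes stood at 0.97.

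**Figure D5:**
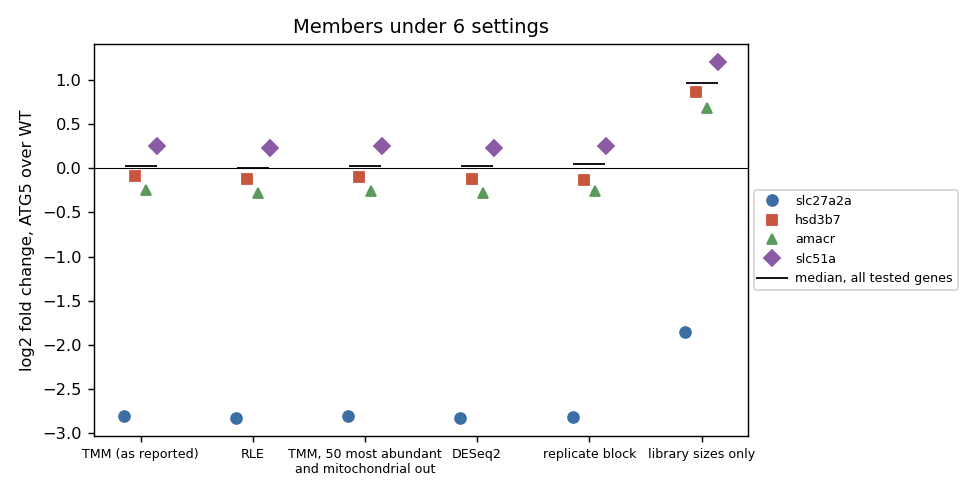
Log2 fold change of ATG5 over WT for the 4 tested members (symbols) and the median over all tested genes (bars) under 6 settings. The slc27a2a value runs from -2.83 to -1.86 and is the lowest in each setting, and the other 3 members stay within 0.31 of the median of all genes.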

How the data were processed

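Per the labels' protocols, RNA was extracted with TRIzol and libraries were made with a kit for stranded total RNA. The authors deposited estimated counts, not always whole, for each Ensembl gene. Per the submitters' processing notes, FastQC 0.11.5, kallisto 0.45.0, sleuth 0.30.0 and GRCz11 were used, in an order not given. No source used here states the strand setting, so reads of a gene and of an antisense partner that overlaps it may be mixed. Symbols came from a names table that matched 23608 of 30628 rows, with case ignored and a paralogue letter possibly missing.

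Estimated counts were rounded, filtered with filterByExpr (20366 genes left), scaled with TMM factors and tested with edgeR 4.0.16 (glmQLFit, glmQLFTest, group only) in R 4.3.3 at an adjusted p of 0.05. The 95% intervals of log2 folds were computed from the quasi-likelihood F statistic. A limit of 3 counts covers counting error only. Members and lists were chosen with earlier results of these data known. Named genes were all members, atg5, fabp10a, up to 4 called genes per direction and pathway list by smallest p, 6 fixed regulators, and abundant cell type markers, and 2 genes that this rule takes are counted but not reported here by name. Chi-square over genes found no 2 libraries agreeing within sampling noise. Steps were tested on simulated counts. Alternatives were RLE factors, library sizes only, DESeq2 1.42.0, 2 other filters, TMM factors computed without mitochondrial genes and the top 50 by level, a replicate block and leaving out each library. No sequence or coordinate of the files' build was used here. Figures were drawn with matplotlib 3.10.9.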

Additional observations from a re-analysis of the deposited data

How the results depend on the processing

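The slc27a2a call held under every alternative run, with log2 folds of -2.96 to -1.86 and edgeR or DESeq2 adjusted p of at most 0.0124, reached with the replicate block. With library sizes only, 3 members were called higher, the pathway list gave 16 higher and 5 lower, and all tested genes gave 10853 and 578. In that setting log2 folds turned to 0.87 for hsd3b7, 0.69 for amacr, 0.035 for fabp10a, 0.82 for nr1h4 and 0.77 for nr5a2, beside a shift of all genes by 0.94. With the replicate block, 2253 genes were higher and 1636 lower, nr1h4 turned to 0.11, and slc27a4 was lost (adjusted p = 0.103). Same-numbered libraries did not deviate together (r = -0.06, -0.11 and 0.03), and pairs with unlike numbers ran from -0.11 to 0.15. With 3 libraries per group these values cannot settle whether the numbers pair the samples. Leaving out 1 library gave 5 to 8 pathway genes higher and 10 to 13 lower, 2218 to 2791 genes higher and 1583 to 2071 lower over all, log2 folds of -0.27 to 0.13 for hsd3b7 and -0.58 to 0.28 for nr1h4, and a log2 ratio of hsd3b7 to amacr of -0.17 to 0.49. The counts over all genes moved by over 1.5 times without ATG5 replicate 1 or WT replicate 1. Without fabp10a, nr0b2b and ch25h, an alternative chosen after seeing the data, 7 pathway genes were higher and 12 lower. Using the median of the hepatocyte markers in place of their mean, also chosen after seeing the data, gave differences of -0.61, 2.06, 1.94 and 2.45 for slc27a2a, hsd3b7, amacr and slc51a. Low counts limit what can be said of slc10a1, slc10a2 and fgf19.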

Other observations

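In the RefSeq gene order of GRCz12tu, a build other than that of the files and used here for gene order only, the protein-coding gene next to slc27a2a on one side is zgc:158482. Its level went from 20.3 CPM in WT to 3.46 CPM in ATG5, a log2 fold of -2.55 (edgeR adjusted p = 0.00174). On the other side stands hdc, which encodes histidine decarboxylase, at 1.27 and 0.683 CPM (log2 fold -0.89, adjusted p = 0.0972). The next gene beyond zgc:158482 is gatm, an enzyme gene of creatine synthesis, at 251 and 201 CPM (log2 fold -0.32, adjusted p = 0.713). Beyond hdc stands gabpb1, at 2.01 and 1.35 CPM (log2 fold -0.58, adjusted p = 0.320). Neighbours of the other members were looked up in the same way. Of those tested, only hpse, near amacr, was called, higher in ATG5 with a log2 fold of 2.91 (edgeR adjusted p = 0.00938). All these neighbours were picked by position alone, and whether reads of zgc:158482 and slc27a2a overlap was not tested.

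Other cell type markers gave the following edgeR calls, where 17.3% of all tested genes were higher and 13.2% lower. Of tested intestine markers 3 of 10 rose and 1 fell, with summed levels that overlapped between groups (118 to 142 CPM in ATG5 and 116 to 163 in WT), and of kidney tubule markers 2 of 3 fell and 0 rose. Macrophage markers rose in 11 of 15 and fell in 1, lymphocyte markers rose in 6 of 10 and fell in 0, and cell division genes rose in 12 of 12. Several macrophage rows share the symbol mfap4 and differ in direction. One (ENSDARG00000090557) is the row that fell, with a log2 fold of -2.19, while another (ENSDARG00000088745) rose by 4.12. Of endothelium markers 1 of 8 rose and 2 fell, and of 12 pancreas and 5 erythrocyte markers 0 were called by edgeR (0 at an unadjusted p under 0.05, and 1 pancreas marker lower by DESeq2). The summed level of the pancreas markers varied widely within WT, from 133 to 4442 CPM, and ran from 671 to 911 CPM in ATG5. With library sizes only the endothelium markers turned to 5 higher and 0 lower, and the intestine markers to 8 higher and 1 lower. In that setting 10853 of all 20366 tested genes were higher and 578 lower.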
